A study of Drosophila melanogaster with 2 samples.

Results

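The 8 Hox genes of Drosophila melanogaster, lab, pb, Dfd, Scr, Antp, Ubx, abd-A and Abd-B, were taken by symbol from the BDGP6 (dm6) annotation, and all 8 matched, among 13945 protein-coding genes. Their peaks came from chromatin immunoprecipitation with sequencing (ChIP-seq) of whole embryos aged 0 to 24 h. The flies were transgenic for a fusion of Single-minded (Sim) with eGFP, the source entry names an insertion targeting sim, and the fusion was precipitated through the tag, although the antibody entry reads sim. The series had 1 group of 2 samples, labelled biological replicates 1 and 2, and the control experiment named in the labels was not analysed here, so each value below stands beside the rest of the genome and not beside an untagged embryo. Of the 2682 peaks in the authors' optimal list, made for both replicates together, 19 had their summit in the Hox complexes. Of these, 13 lay inside a Hox gene or within 5 kb of one, and 6 lay elsewhere between the genes of a complex. In chromatin of whole embryos, binding in few cells and weak binding in many cannot be told apart.

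Hox genes encode homeodomain transcription factors that give body segments their identity along the head-to-tail axis. In the fly they lie on chromosome arm 3R in a pair of clusters, the Antennapedia complex (ANT-C, lab to Antp) and the bithorax complex (BX-C, Ubx to Abd-B). Their order along the chromosome largely follows the order of the body regions they control. Large regulatory regions inside and between the genes direct expression segment by segment, and Polycomb and trithorax group proteins maintain it. Sim is a bHLH-PAS factor that directs midline cell fate in the developing nerve cord, and with its partner Tango it binds the CNS midline element, whose core is ACGTG.

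The sequences that follow are the windows of 101 bp centred on 7 of the 19 summits, on the plus strand of dm6, read from the RefSeq copy of the assembly. They are shown because they are the strongest Hox peak (in Antp), a further intronic Antp peak rich in A and T, the promoter peak of lab that holds the midline core, the stronger peak in Ubx, the BX-C peak present in both replicate lists, and a pair of BX-C windows that share a word. Capitals mark a match on either strand to TAATTA (homeodomain core), ACGTG (midline element core), GAGAG (GAGA factor), GCCAT (core of the Polycomb group protein Pho), CAGGTA (Zelda), TTTATG (Abd-B type homeodomain) or AGATGGCG. The last word was chosen after the windows were seen.
Antp intron, chr3R:6914470-6914570: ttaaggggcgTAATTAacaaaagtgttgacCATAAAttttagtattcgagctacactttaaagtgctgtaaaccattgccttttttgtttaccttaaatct
Antp intron, chr3R:6936293-6936393: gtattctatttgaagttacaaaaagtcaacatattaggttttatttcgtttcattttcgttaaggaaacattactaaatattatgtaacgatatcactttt
lab promoter, chr3R:6678611-6678711: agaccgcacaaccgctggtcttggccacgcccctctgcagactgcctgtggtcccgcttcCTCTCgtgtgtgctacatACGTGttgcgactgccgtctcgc
Ubx intron, chr3R:16718125-16718225: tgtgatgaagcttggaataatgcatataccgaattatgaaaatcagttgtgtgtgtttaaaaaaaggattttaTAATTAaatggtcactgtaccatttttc
Between Ubx and abd-A, chr3R:16798853-16798953: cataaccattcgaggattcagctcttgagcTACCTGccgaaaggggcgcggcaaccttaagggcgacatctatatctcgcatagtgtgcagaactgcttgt
lncRNA:bxd intron, chr3R:16748726-16748826: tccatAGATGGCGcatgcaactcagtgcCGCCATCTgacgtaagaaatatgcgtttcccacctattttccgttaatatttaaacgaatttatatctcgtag
Upstream of abd-A, chr3R:16834818-16834918: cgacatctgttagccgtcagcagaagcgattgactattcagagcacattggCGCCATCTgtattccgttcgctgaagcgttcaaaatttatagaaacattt

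Of the 8 Hox genes, 5 carried an optimal peak and 3 did not. The 5 with a peak were lab (3 peaks), Scr (1), Antp (6), Ubx (2) and abd-A (1), while pb, Dfd and Abd-B had none. Each of these 13 peaks lay near 1 Hox gene only. By the same rule, a summit within the gene or 5 kb either side, 30.0% of all protein-coding genes carried a peak. Long genes have more room for a summit: all 8 Hox genes were at least 10 kb long, and 48.9% of the 1977 protein-coding genes of that length carried one. The count of 5 of 8 therefore stood near the share among long genes. In the conservative list, the shorter of the lists for both replicates together, 3 Hox genes carried a peak (lab, Antp and Ubx), beside 27.8% of protein-coding genes. In the list of replicate 1 alone lab and Antp did, beside 15.0%, and in that of replicate 2 alone Antp and Ubx did, beside 21.9%. Antp was the only Hox gene with a peak in all 4 lists. The window around a gene also set the count. With summits inside the gene alone, 3 Hox genes (lab, Antp and Ubx) carried an optimal peak, beside 8.13% of protein-coding genes, and the same 3 did with 1 kb either side, beside 16.5%. With 10 kb either side 5 did, beside 42.8%. When each peak went to the gene with the nearest TSS (transcription start site), 5 did, beside 13.1%, with Dfd in and Scr out. Among peaks at the highest score 3 did, beside 24.2%, and among the 1341 strongest peaks Antp alone did, beside 18.6%. The share among genes of at least 10 kb was taken for the first rule only. The other shares are over genes of every length, so length is not matched in them.

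**Figure D1:**
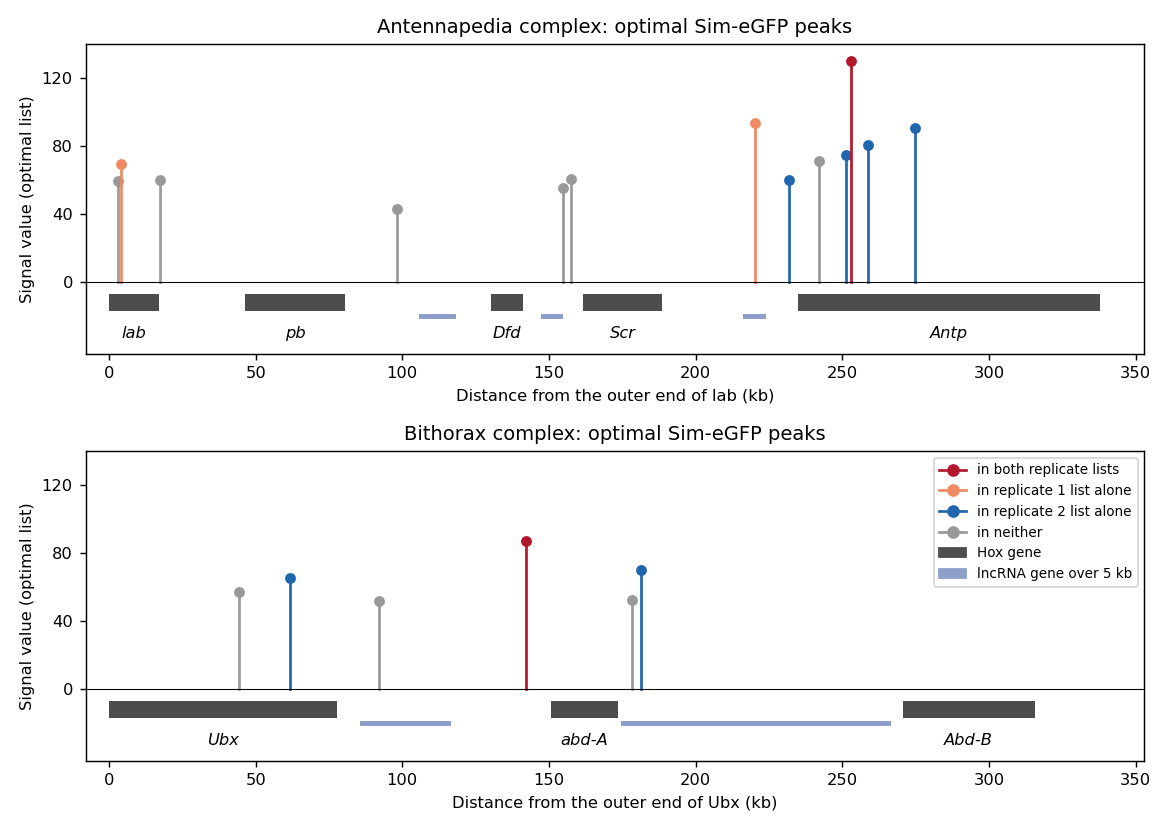
Optimal peaks of the ANT-C (upper panel) and the BX-C (lower panel). The x axis is the distance in kb from the outer end of lab or of Ubx, stems are signal values of the pooled list on a linear axis, colours give the replicate lists that hold the peak, dark bars are Hox genes and pale bars lncRNA genes over 5 kb. Peaks gather over the proximal part of Antp, where the highest reaches 130, and none lies at pb, Dfd or Abd-B.

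The signal value is the strength that the authors' peak caller gave to a peak, and the score is a scaled irreproducible discovery rate (IDR), up to 1000, whose lowest value of 830 in the thresholded lists corresponds to an IDR of 0.0100. Both are the authors' own values. Each replicate also had a ranked list, which goes on below the threshold, and the value of a replicate at a peak is that of the strongest ranked peak overlapping it by at least 1 bp. Signal values of a replicate's lists are not taken to be on the scale of the other replicate's, or of the lists for both replicates together. The median signal value was 53.7 over the 1071 thresholded peaks of replicate 1 and 55.4 over the 1676 of replicate 2, and 75.1 over the optimal list.

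In the ANT-C, lab (FBgn0002522, chr3R:6661427-6678590, minus strand), the most anterior Hox gene, which acts in the head and the midgut, carried 3 optimal peaks, each below the median signal value of the optimal list. An intronic peak at chr3R:6665353-6665656 had a signal value of 69.5 in the optimal list, with 45.7 in replicate 1 and 26.9 in replicate 2, and only the list of replicate 1 held it above threshold. A second intronic peak at chr3R:6664448-6664751 had 59.5, with 23.6 in replicate 1 and 36.9 in replicate 2. The third, at chr3R:6678509-6678812, had its summit 71 bp upstream of the distal TSS of lab and a value of 60.1, with 32.8 in replicate 1 and 33.7 in replicate 2. The last 2 of these were in the conservative list but in neither replicate list. The upstream peak was the only 1 of the 19 with ACGTG within 50 bp of its summit. Over all optimal summits the share was 7.27%, beside 9.25% of windows 300 bp to either side. The 19 annotated TSSs of the Hox genes had 1 with a summit within 500 bp, that of lab, while 8.39% of TSSs of protein-coding genes did.

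No optimal peak lay near pb (FBgn0051481, chr3R:6707800-6742063), which directs the formation of adult mouthparts, or near Dfd (FBgn0000439, chr3R:6791836-6802428), which acts in the mandibular and maxillary segments. The nearest optimal summit was 17458 bp from the end of pb and 13897 bp from that of Dfd. In the pooled ranked list, which holds every optimal peak, the strongest entry near pb had a signal value of 40.3 and a score of 67, and the strongest near Dfd had 29.9 and a score of 170. The ranked list was not sparse there. It held 9.94 entries per 10 kb around pb and 11.2 around Dfd, beside 11.5 per 10 kb over all protein-coding genes, the genes being extended by 5 kb on each side.

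Scr (FBgn0003339, chr3R:6823120-6849981), which acts in the labial segment and prothorax and is required for salivary glands, carried 1 peak. It lay beyond the 3′ end of the gene at chr3R:6818639-6818942, between genes, with its summit 4329 bp from the gene. Its signal value was 60.4, with 35.1 in replicate 1 and 21.3 in replicate 2, and it was in neither replicate list and not in the conservative list. The nearest TSS of a protein-coding gene was that of Dfd, 26955 bp away. Among the Hox genes, the peak therefore belongs to Scr by distance to the gene and to Dfd by distance to a TSS. The gene lncRNA:CR42651, which ends at chr3R:6816379, lay closer to the summit than Scr.

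Antp (FBgn0260642, chr3R:6896253-6999228), which gives thoracic segments their identity, carried the most and the strongest Hox peaks. Of its 6 peaks, 5 were in introns and 1 lay beyond the 3′ end, in an exon of lncRNA:CR45559. The protein-coding gene CG46458 overlaps the proximal part of Antp, so the 5 intronic summits lie in an intron of each. The strongest, at chr3R:6914368-6914671, had a signal value of 130 and was number 457 of the 2682 optimal peaks, with 48.1 in replicate 1 and 82.4 in replicate 2. The next strongest peak of the complexes was number 901. Within 5 kb of a Hox gene, it was the only one held by both replicate lists.

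The next Antp peak in strength was at chr3R:6936191-6936494, with a signal value of 90.8 in the optimal list, 34.4 in replicate 1 and 52.6 in replicate 2. Its summit lay 3503 bp upstream of the most proximal of the 3 annotated TSSs of Antp. The peak at chr3R:6920008-6920311 had 80.6, with 28.8 in replicate 1 and 52.6 in replicate 2. These 2 were above threshold in replicate 2 only. That at chr3R:6912423-6912726 had 74.5, with 17.7 in replicate 1, the lowest replicate 1 value of the 19 peaks, and 50 in replicate 2. It was not in the conservative list, the only Antp peak of which this was so.

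The 2 remaining Antp peaks were weaker. The peak at chr3R:6903205-6903508 had 71.5, with 33.0 in replicate 1 and 35.6 in replicate 2, and was in neither replicate list. The peak beyond the 3′ end, at chr3R:6893053-6893356, had 59.8, with 23.7 in replicate 1 and 35.7 in replicate 2. In all, 5 of the 6 Antp peaks were in the replicate 2 list and 1 in the replicate 1 list. Of all optimal peaks, 30.8% were in both lists, 27.4% in that of replicate 2 alone and 7.38% in that of replicate 1 alone. No summit lay near the distal TSSs of Antp, from which the nearest were 22027 and 62885 bp away. Of all protein-coding genes, 35 had at least 6 optimal summits by this rule, Antp among them, and the largest number was 12. Antp is 102976 bp long, and of the 307 protein-coding genes of at least 50 kb, 18 had at least 6, with a median of 1. Per 10 kb of extended gene, Antp had 0.531 optimal peaks and lab 1.10, while pb, Dfd and Abd-B had none. The 8 Hox genes together had 0.311, beside 0.262 over all protein-coding genes and 0.221 over those of at least 10 kb.

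**Figure D2:**
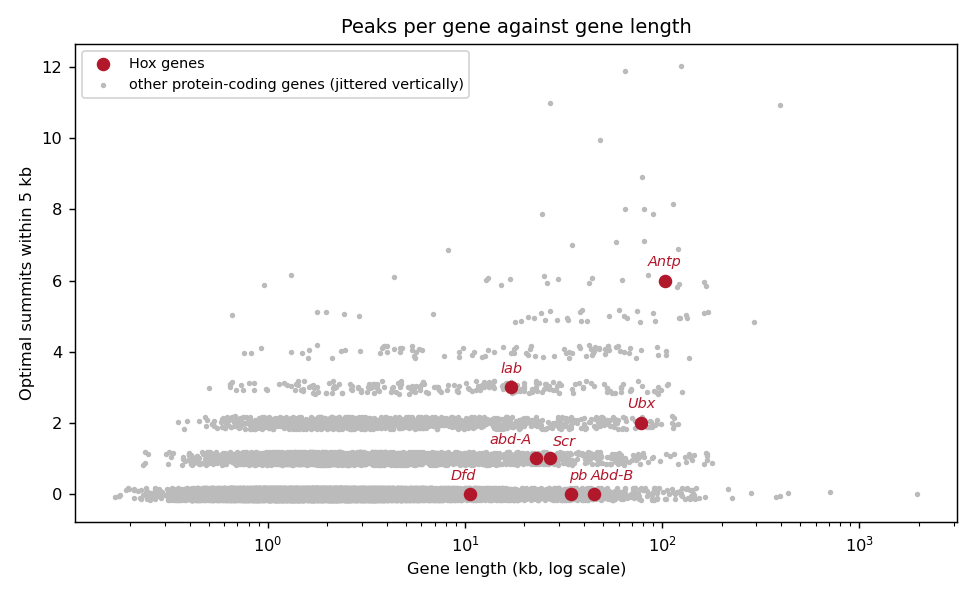
Number of optimal summits within 5 kb of each protein-coding gene (y axis) against gene length in kb (x axis, log scale). Red points are the 8 Hox genes and grey points all others, jittered vertically. Antp has 6 and lab 3, while pb, Dfd and Abd-B are at 0.

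In the BX-C, Ubx (FBgn0003944, chr3R:16656623-16734426), which acts in the posterior thorax and anterior abdomen, carried 2 intronic peaks. That at chr3R:16718023-16718326 had a signal value of 65.4, with 26.2 in replicate 1 and 39.1 in replicate 2, and was above threshold in replicate 2. That at chr3R:16700940-16701243 had 57.3, with 32.8 in replicate 1 and 22.9 in replicate 2, and was in neither replicate list. Their order thus differed between the replicates. Both summits were far from the TSS of Ubx, at 16251 and 33334 bp. Ubx had 0.228 optimal peaks per 10 kb of extended gene, close to the 0.221 over genes of at least 10 kb, and 59.3% of protein-coding genes of at least 50 kb carried a peak.

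The abdominal genes abd-A and Abd-B had 1 optimal peak between them. abd-A (FBgn0000014, chr3R:16807214-16830049), which specifies the anterior and middle abdomen, had 1 peak, at chr3R:16834716-16835019, with its summit 4819 bp upstream of the distal TSS and a signal value of 52.3. It had 28.3 in replicate 1 and 23.7 in replicate 2 and was in none of the other thresholded lists. Per 10 kb of extended gene abd-A had 0.305 optimal peaks, beside 0.221 over protein-coding genes of at least 10 kb. Within the window of abd-A a ranked entry had a higher signal value, 55.7, but a score of 782, below the threshold. Signal value and IDR thus order these peaks differently. Abd-B (FBgn0000015, chr3R:16927212-16972236), which specifies the posterior abdomen and genitalia, had no optimal peak although the annotation gives it 6 TSSs. Its strongest ranked entry had a signal value of 53.9 and a score of 517. The ranked list held 11.3 entries per 10 kb around it.

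Peaks between the genes included some stronger than most of those at Hox genes. In the ANT-C, a peak at chr3R:6881631-6881934 in an intron of lncRNA:CR44931, between Scr and Antp, had a signal value of 93.7, with 42.5 in replicate 1 and 47.4 in replicate 2. It was the second strongest of the 19, and the homeobox pair-rule gene ftz had the nearest protein-coding TSS, 17459 bp away. The list of replicate 1 held it, and its ranked score in replicate 2 was 830, the lowest score that any thresholded list contained. A peak at chr3R:6816173-6816476 in an exon of lncRNA:CR42651, between Dfd and Scr, had 55.2, with 29.5 in replicate 1 and 25.4 in replicate 2. The weakest of the 19, at chr3R:6759369-6759672, had 43.1, with 30.7 in replicate 1 and 16.0 in replicate 2. Its summit was 55 bp upstream of a TSS of bcd, the maternal anterior determinant, which lies among the Hox genes.

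In the BX-C, a peak between genes at chr3R:16798751-16799054, with Ubx on one side and abd-A on the other, had a signal value of 87.5, with 43.5 in replicate 1 and 43.7 in replicate 2. Both replicate lists held it, and its nearest protein-coding TSS was that of the glucose transporter gene Glut3, 10592 bp away. In the lncRNA gene bxd, upstream of Ubx, an intronic peak at chr3R:16748624-16748927 had 52.1, with 26.3 in replicate 1 and 23.7 in replicate 2, nearest to a TSS of CG31275 (2558 bp). In introns of lncRNA:iab8 and MSAmiP, a peak at chr3R:16837925-16838228 had 70.0, with 20.8 in replicate 1 and 47.4 in replicate 2, and lay 8028 bp upstream of abd-A. The peak within 5 kb of abd-A was in introns of the same genes.

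**Figure D3:**
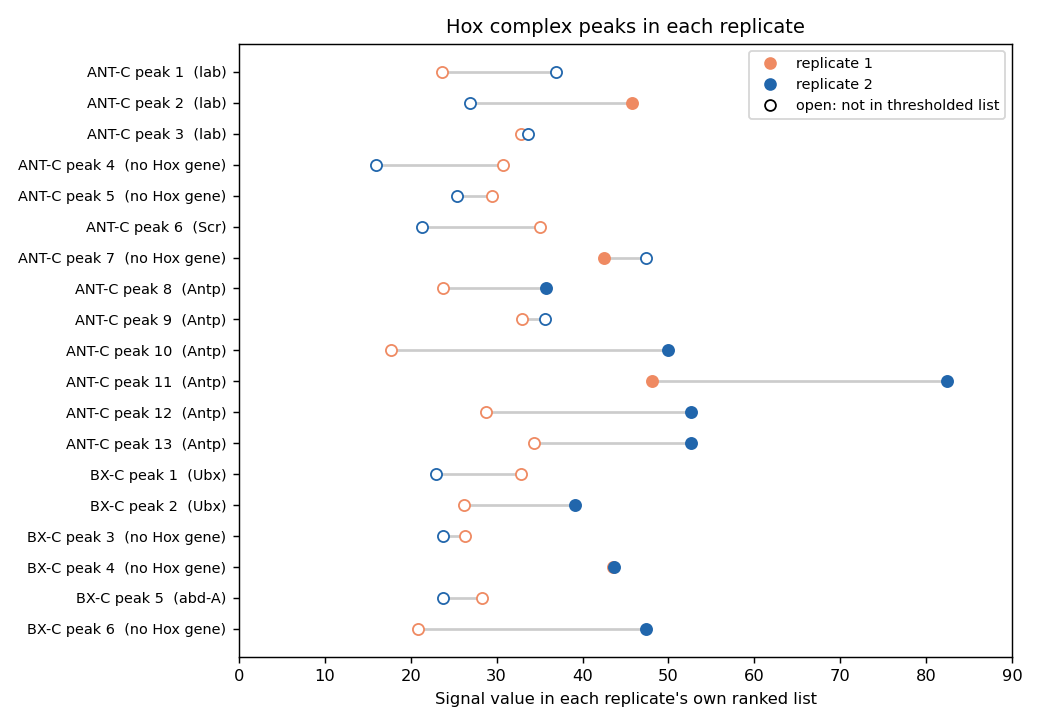
Signal value in the ranked list of each replicate (x axis) at the 19 optimal peaks of the Hox complexes (rows), numbered along the chromosome from lab to Antp and from Ubx to Abd-B, with the Hox gene within 5 kb in brackets. Filled points were also in that replicate's thresholded list, and at BX-C peak 4 both replicates coincide. ANT-C peak 11 and BX-C peak 4 are the only rows filled for both.

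Few of the 19 peaks were held by both replicate lists. These were 2 of 19 (10.5%), the Antp peak of 130 and the BX-C peak of 87.5, beside 30.8% of all optimal peaks. The count was also 2 when at least 0.5 of the peak had to be overlapped (29.8% of all optimal peaks) or summits had to lie within 100 bp of each other (30.1%). A further 2 (10.5%) were in the replicate 1 list alone and 6 (31.6%) in the replicate 2 list alone, beside 7.36% and 27.4% of the other optimal peaks. The remaining 9 (47.4%) were in neither, beside 34.2% of the other optimal peaks and 40.7% of those in the same signal range. The Hox peaks had a median signal value of 65.4, beside 75.2 for the other optimal peaks. Whether strength bears on the count was not tested. Of the 2102 other optimal peaks in the signal range of the Hox peaks, 43.1 to 130, both lists held 17.7%. That range takes in most of the 2663 other optimal peaks, so strength was not matched within it. The conservative list held 12 of the 19 (63.2%), beside 80.1% of the other optimal peaks and 76.8% of those in the same signal range. By complex it held 10 of the 13 ANT-C peaks and 2 of the 6 BX-C peaks.

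**Figure D4:**
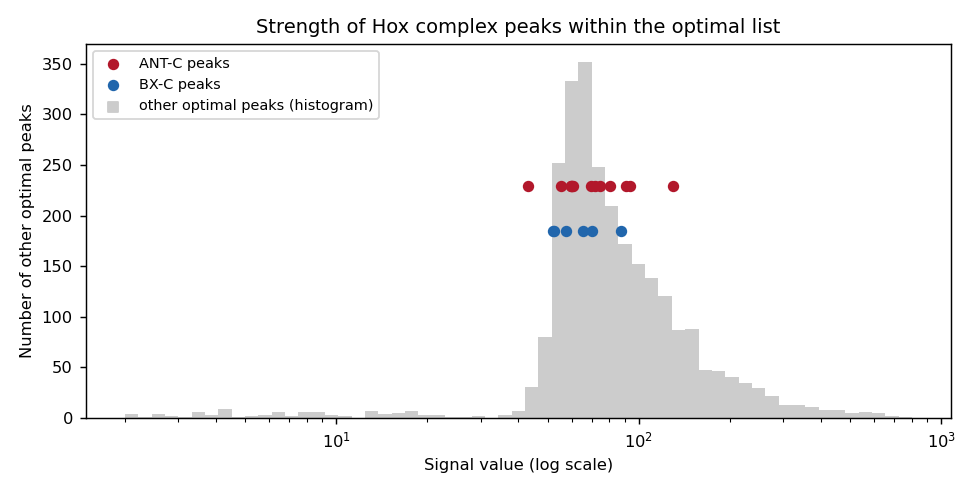
Signal values (x axis, log scale) of the 13 ANT-C peaks and 6 BX-C peaks (points, set at an arbitrary height) over a histogram of the 2663 other optimal peaks (y axis, number of peaks). The Hox points run from 43.1 to 130, and 5 of the 19 are in the stronger part of the list, the 1341 peaks with the highest values.

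The conservative list held peaks in the complexes that the optimal list lacked. One at chr3R:6762885-6763188, near the TSS of the immunoglobulin-domain gene Ama between bcd and Dfd, had a signal value of 88.0 and a score of 1000 there. In the pooled ranked list behind the optimal list the same site had 88.0 and a score of 641. Replicate 1 had 52.1 at this site, above threshold, and replicate 2 had 36.0, with a score of 437. Another at chr3R:16847264-16847567, in introns of lncRNA:iab8 and MSAmiP 17367 bp from abd-A, had 57.8 and a score of 835 in the conservative list and 723 in the other ranking. Replicate 1 had 23.9 there and replicate 2 had 32.0, both below threshold.

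Peaks were denser in the ANT-C than in the BX-C. With 5 kb added at each end, the ANT-C held 13 optimal peaks in 348 kb, 3.74 per 100 kb, and the BX-C held 6 in 326 kb, 1.84 per 100 kb. The rest of 3R had 1.86 per 100 kb and all arms outside the complexes 2.00. When the arms were tiled with windows as long as each complex, 13.9% of 381 windows held at least 13 peaks and 53.8% of 409 held at least 6, with medians of 7 and 6. The difference between the complexes was not tested, since each is a single region. The replicate 1 list had 5 entries in the ANT-C, of which 2 overlapped at the gene Ama, a site outside the optimal list. It thus had 4 distinct sites there, 1.15 per 100 kb, and held 3 of the 13 optimal peaks. In the BX-C it had 1 site, 0.307 per 100 kb. The replicate 2 list had 5 sites in the ANT-C, 1.44 per 100 kb, and 3 in the BX-C, 0.921 per 100 kb, all of them at optimal peaks.

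Several stretches in and beside the complexes held no optimal summit. From the iab8 peak to a summit beyond the complex, in the 5′ UTR of CG18622, 149 kb held no optimal summit, and this stretch contained the whole of Abd-B. That next peak, at chr3R:16986500-16986803, had a signal value of 101 and was held by both replicate lists. Of 2676 gaps between neighbouring optimal summits on an arm, 7.03% were at least as long, and the median gap was 17.4 kb. An 80.9 kb stretch between lab and bcd contained pb, and 16.5% of gaps were at least that long. The distal part of Antp lay in a gap of 131 kb (9.01% of gaps as long) and the 3′ part of Ubx in a gap of 130 kb (9.12%) that ran on outside the BX-C. The longest of these gaps, of 160 kb (5.98%), lay mostly outside the ANT-C and ended at the intronic lab peak nearest to the 3′ end. The shares count gaps, and a long gap spans more sequence than a short one. They are therefore not shares of the genes or of the sequence that lie in such stretches. These stretches were picked out after their lengths were seen.

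Hox complex peaks were mostly away from the TSSs of protein-coding genes, the only TSSs counted here. Of the 19 summits, 2 (10.5%) lay within 500 bp of a TSS of a protein-coding gene, those at lab and bcd, beside 40.3% of all optimal summits and 38.4% of the other peaks in the same signal range. The median distance to such a TSS was 12680 bp, beside 979 bp for all optimal peaks. How densely such TSSs lie in the complexes was not taken into account. There were 13 summits in introns, 4 between genes and 2 in exons of lncRNA genes. The TSSs of lncRNA genes were not counted, so the last 2 summits may lie near such a TSS. Shares by place were not taken over all optimal peaks, so these counts do not set the complexes apart. The nearest protein-coding TSS was that of a Hox gene for 14 of the 19.

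Base composition at the summits varied widely. GC content of the 101 bp windows averaged 39.9% (SD 12.7, n = 19 peaks), beside 35.9% (SD 10.9) over the other optimal peaks. At the 6 Antp peaks it averaged 31.0% (SD 9.83) and ranged from 19.8% to 47.5%, and in the second Antp window above it was 23.8%. At the lab promoter it was 63.4%.

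Motif matches were few. TAATTA was within 50 bp of 2 of the 19 summits (10.5%), in Antp and Ubx, beside 9.06% of all optimal summits. It was in 7.89% of the 38 flanking windows 300 bp to either side, and in 6.10% of the flanks of all optimal summits. ACGTG was at 1 (5.26%, beside 7.27%), GAGAG at 3 (15.8%, beside 12.8%), CAGGTA at 1 (5.26%, beside 1.86%) and TTTATG at 1 (5.26%, beside 12.9%). In the Hox flanks GAGAG was in 10.5%, CAGGTA in 2.63% and TTTATG in 15.8%. In the flanks of all optimal summits the shares were 16.6%, 2.18% and 10.1%. ACGTG was also in 5.26% of the Hox flanks and in 9.25% of the flanks of all optimal summits. It was thus no more common at summits than beside them. GCCAT was at 6 (31.6%), 4 in the ANT-C and 2 in the BX-C, beside 14.2% of all optimal summits. It was in 23.7% of the Hox flanks and in 17.3% of the flanks of all optimal summits. GCCAT is part of the word AGATGGCG read on the other strand. That word occurred at the bxd summit, on each strand, and at the summit upstream of abd-A, thus at 2 of the 19, beside 16 of the 2682 optimal summits (0.597%) and 0.317% of their flanks. It is close to the core recognised by the insulator protein CTCF. The related word AGGTGGCG was at 0 of the 19 summits and at 0.447% of all optimal summits. These shares rest on 19 windows and are descriptions.

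Other genes of the Hox network were read by the same rule. Of 57 such genes, 21 (36.8%) carried an optimal peak within 5 kb. Of the 28 that are protein-coding, 11 did, beside 30.0% of all protein-coding genes. The other 29 are lncRNA and miRNA genes, of which 10 did, beside 23.2% of such genes genome-wide. Gene length was not matched in either comparison. Among the cofactors that bind DNA with Hox proteins, hth carried 5 peaks, all inside the gene, the strongest at 101 in both replicate lists, and exd carried none. Among the other homeobox genes of the ANT-C, bcd had the peak described above, and zen, zen2 and ftz had none. Of 11 segmentation genes that act upstream, 4 (36.4%) carried a peak, beside the same 30.0%: cad (3 peaks, best 121), slp1 (100), opa (62.3, near its TSS) and hry (58.1). The best peak near cad had its nearest TSS at Pomp. The gap genes hb, Kr, gt, kni and tll carried none, nor did eve and run.

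Targets of Hox proteins carried peaks in 5 of 11 cases (45.5%), between the 30.0% of all protein-coding genes and the 48.9% of the long ones. The strongest was at Dll, a limb gene repressed by Hox proteins in the abdomen, with a signal value of 180, 112 bp from a TSS and in both replicate lists. It was stronger than every peak of the Hox complexes. Both replicate lists also held the best peaks of fkh (140), which acts in salivary glands, and of the BMP ligand gene dpp (114). The best peak of the cell death gene rpr (88.6) was in the replicate 2 list alone and 30 bp from its TSS, and that of salm (50.6) was in neither list. No peak lay near wg, tsh, ems, Con, grn or betaTub60D. Among 29 lncRNA and miRNA genes inside the complexes, 10 (34.5%) had a summit within 5 kb, beside 23.2% of the 2204 genes named as lncRNA or miRNA genes genome-wide. A summit lay inside 5 of the 29, beside 4.54% genome-wide with no matching for length. They were CR42651, CR44931, CR45559, bxd (31065 bp long) and iab8 (92116 bp long). The miRNA genes mir-10, mir-993, mir-iab-4 and mir-iab-8 had none. Many of these RNA genes share their peak with a neighbour.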

How the data were processed

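Peak lists were the authors' own, deposited in dm6 coordinates: a thresholded and a ranked list per replicate, and conservative, optimal and ranked lists of both replicates together. The deposited score is the scaled IDR, and the deposited signal value is the strength given by the peak caller. Chromatin was sonicated, with fragments of 200 to 800 bp per the labels. The sources used here name no aligner, caller or settings. The lists hold no read counts, so depth is unknown and intervals cannot be given. The 16 columns of compared call sets in the series' ranked lists were not used. Summits are peak start plus offset, written 1-based.

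Genes came from Ensembl release 115 (BDGP6) and bases from RefSeq, and no peak ended beyond its arm. Places of summits ignore pseudogenes and transposons. A complex ran from lab to Antp or from Ubx to Abd-B, with 5 kb added at each end. Python 3.11.15, numpy 2.4.6, pandas 2.3.3 and matplotlib 3.10.9 were used, and gene windows, merging and motif search were tested on simulated data.

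Results are descriptions, because 1 group of peak lists allows no test between groups. The members and lists were chosen with earlier results of these data known. Named are all Hox genes, genes with the TSS nearest to a complex peak, listed genes with a peak and the strongest unthresholded entries, and others, such as Ama and genes beside gaps, were named after their values were seen.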

Additional observations from a re-analysis of the deposited data

How the results depend on the processing

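The count of 5 Hox genes with a peak became 3 with the conservative list (lab, Antp and Ubx), with a score of 1000 required, with the gene body alone (8.13% of protein-coding genes called) and with 1 kb either side (16.5%). It was 1 (Antp) in the strongest 1341 optimal peaks (18.6%), 2 in each single replicate list, and 5 with 10 kb either side (42.8%), merged peaks or the nearest TSS (13.1%). By nearest TSS Dfd took the place of Scr. The shares in brackets are over genes of every length, and the cause was not tested. Complex peaks, 19 in all, numbered 6 to 8 in a single replicate list, 5 in the strongest 1341 and 12 at a score of 1000. For the ANT-C the count of 13 became 5 in either replicate list (in replicate 1, 3 of the 13 and 2 overlapping entries at Ama) and 4 in the strongest 1341. For the BX-C the count of 6 became 1 to 3 in a single replicate list, 1 in the strongest 1341 and 3 at a score of 1000. Fewer peaks enter each of these. Moving the ends of the complexes by 5 kb changed no count of complex peaks. Network genes with a peak, 21 of 57, numbered 12 in the replicate 2 list (21.9% of protein-coding genes called) and 13 in the replicate 1 list (15.0%). They numbered 10 in the strongest 1341 (18.6%) and 8 with the gene body alone (8.13%), so the share over all protein-coding genes fell too. These shares leave out RNA genes, which are 29 of the 57. For lncRNA and miRNA genes a share was taken in the optimal list only, 23.2% within 5 kb and 4.54% with the gene body alone. TAATTA was at 0 of the 19 summits within 25 bp, beside 134 of all 2682 optimal summits. Within 100 bp it was at 2 of the 19, beside 389 of the 2682. It was at 1 of the 5 complex peaks in the strongest 1341. In the replicate 2 list it was at 2 of 8 and in the replicate 1 list at 1 of 6. For these shorter lists no share over all summits was taken, so their counts do not set the complexes apart. The 2 peaks held by both replicates stayed at 2 in the 3 alternatives tried. Unknown depth limits every absence: a gene without a peak passed no threshold here, which does not show that it is unbound.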
